A study of Saccharomyces cerevisiae BY4741 with 6 samples.

Results

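The genes described here encode 10 peroxins, the proteins of peroxisome formation, that act on the peroxisomal membrane: PEX19, which serves membrane protein insertion, and PEX11, PEX25, PEX27, PEX28, PEX29, PEX30, PEX31, PEX32 and PEX34, which set the size and number of the organelles. They were taken by their systematic names from a deposited table of 5631 genes and RNA features, and all 10 were present. Poly(A) RNA was sequenced from 3 cultures of a pex3 deletion strain and 3 cultures of the wild type (WT) of the budding yeast Saccharomyces cerevisiae, both on acetate. The deletion strain carries pex3(YDR329c)::kanMX4, a resistance cassette in place of PEX3, and is a single collection strain in all 3 cultures, so that the deletion and any other change in that strain cannot be told apart. The WT is BY4741. Both strains are MATa haploids with the alleles his3[delta]1 and leu2[delta]0 together with met15[delta]0 as well as ura3[delta]0. Cells were first grown on 0.5% glucose, diluted into mineral medium with 0.5% acetate and harvested from shake flasks at 30 degrees Celsius at an optical density (OD660) of 0.5. The series asks whether loss of PEX3 changes the transcriptome on a carbon source that relieves repression of many peroxisomal genes.

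Peroxisomes acquire their membrane proteins through Pex19, a farnesylated cytosolic chaperone that binds new membrane proteins and docks on Pex3 at the membrane. Without either protein yeast cells lack functional peroxisomes. Pex11 and its relatives Pex25 and Pex27 shape the membrane before it divides, whereas the Pex30 group has reticulon-like domains and resides in the endoplasmic reticulum (ER), where new peroxisomes and lipid droplets arise. PEX11 is also known as a gene that oleate induces through the transcription factors Oaf1 and Pip2.

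The library totals ranged from 7682260 to 9395281 counts in the deletion strain and from 6782522 to 9410398 counts in the WT. Each of the 10 genes had between 155 and 1823 counts in every library, and all passed the filter on low counts. The targeted gene PEX3 was not analysed here, so the strain labels were taken as given. On the first principal component the deletion libraries lay between -12.2 and 1.33, and WT replicate 1 stood apart at 20.5, with the other WT libraries at 1.56 and -4.92. The departure of a library from the average log2 level varied with gene length, with Spearman coefficients across genes of -0.143, -0.0758 and 0.152 in the deletion libraries and 0.324, -0.135 and -0.381 in the WT libraries. Without WT replicate 1 the log2 fold changes of the 10 genes lay between -0.19 and 0.16, beside -0.23 and 0.12 with all libraries, and the smallest edgeR adjusted p was 0.707. Of the mating-type markers, 4 a-cell genes summed to 600.2 to 634 CPM (read counts brought to the same library size, using TMM factors) in deletion libraries and 616 to 707 CPM in WT libraries. The 3 alpha-cell genes STE3, SAG1 and MF(ALPHA)1 summed to 71.2 to 81.2 CPM in deletion libraries and 83.5 to 86.5 CPM in WT libraries, and 5 sporulation genes to 78.1 to 85.4 CPM in deletion libraries and 82.3 to 93.1 CPM in WT libraries. The log2 fold changes of the 4 a-cell genes, the 3 alpha-cell genes and 2 of the 5 sporulation genes were below 0. The a-cell gene BAR1 (-0.27, edgeR adjusted p 0.491) and the sporulation gene IME2 (-0.35, edgeR adjusted p 0.507) were lower in every deletion library. Such separation downward was seen for 7.73% of all tested genes. None of these measured markers averaged 0 in either strain, and their part in the results was not tested.

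None of the 10 genes changed in the edgeR quasi-likelihood test at an adjusted p under 0.05, and 0 of them had an unadjusted p under 0.05. Over all 5628 tested genes, 0.142% were called higher and 0.0355% lower in the deletion strain, and 9.08% had an unadjusted p under 0.05. DESeq2 likewise called 0 of the 10. Of the log2 fold changes (log2FC, deletion over WT), 5 were above 0 and 5 below. Their median was -0.025, beside 0.0056 over all tested genes, and the median of their sizes without sign was 0.11, beside 0.10 over all tested genes. The 95% intervals of all 10 fold changes lay between 0.702-fold and 1.35-fold, so that for each gene a 2-fold change in either direction fell outside its interval. These are bulk cultures, in which fewer cells with a transcript and less of it per cell cannot be told apart.

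**Figure D1:**
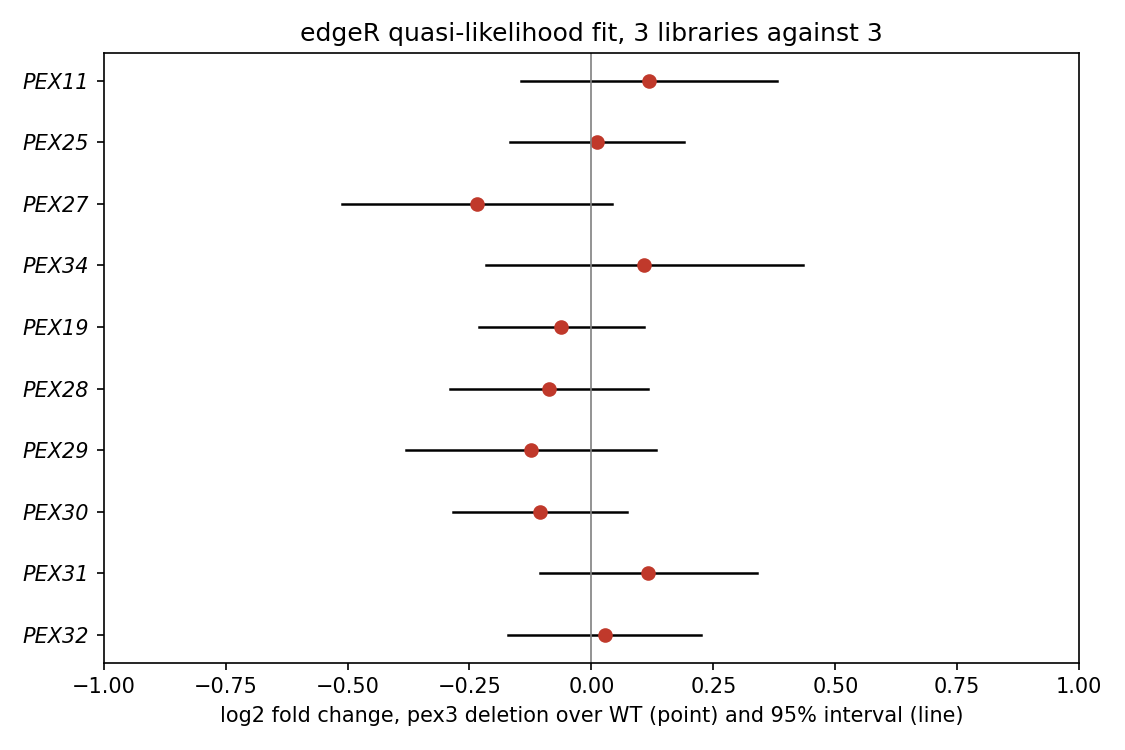
The log2 fold change of each of the 10 genes, pex3 deletion over WT (points), with the 95% interval of the edgeR fit (lines). Every interval contains 0; the point for PEX27 lies furthest from it at -0.23, and the upper end of the PEX34 interval is 0.43.

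Levels of different genes were compared per length, as CPM per kilobase of gene length. PEX11 averaged 158 ± 20.3 CPM per kilobase in the deletion strain and 146 ± 13.7 in the WT (SD, n = 3 each), and was the highest of the 10 genes. PEX30 came next, with 121 ± 2.98 CPM per kilobase in the deletion strain and 130.1 ± 8.88 in the WT, then PEX19 with 107 ± 4.46 in the deletion strain and 112 ± 6.32 in the WT. PEX25 followed at 92.7 ± 2.91 CPM per kilobase in the deletion strain and 92 ± 7.05 in the WT. These 4 genes lay at the 81.3rd, 77.4th, 74th and 69.3rd percentile of 5519 genes with a known length.

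A lower tier held PEX34, PEX28, PEX29 and PEX32, with averages over all 6 libraries of 56.9, 52.3, 45.6 and 41.9 CPM per kilobase. PEX31 averaged 26.6 and PEX27 20.9 CPM per kilobase over the 6 libraries, at the 20.9th and 14th percentile. The ranges over 6 libraries overlapped between PEX11 and PEX30, PEX34 and PEX28, PEX28 and PEX29, and PEX29 and PEX32, so those neighbours were not separated by their spread over libraries. Within libraries, the higher-ranked gene of each of these 4 pairs lay above the other in 5 of 6. The ranges of PEX30 and PEX19, PEX19 and PEX25, PEX25 and PEX34, PEX32 and PEX31, and PEX31 and PEX27 did not overlap.

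**Figure D2:**
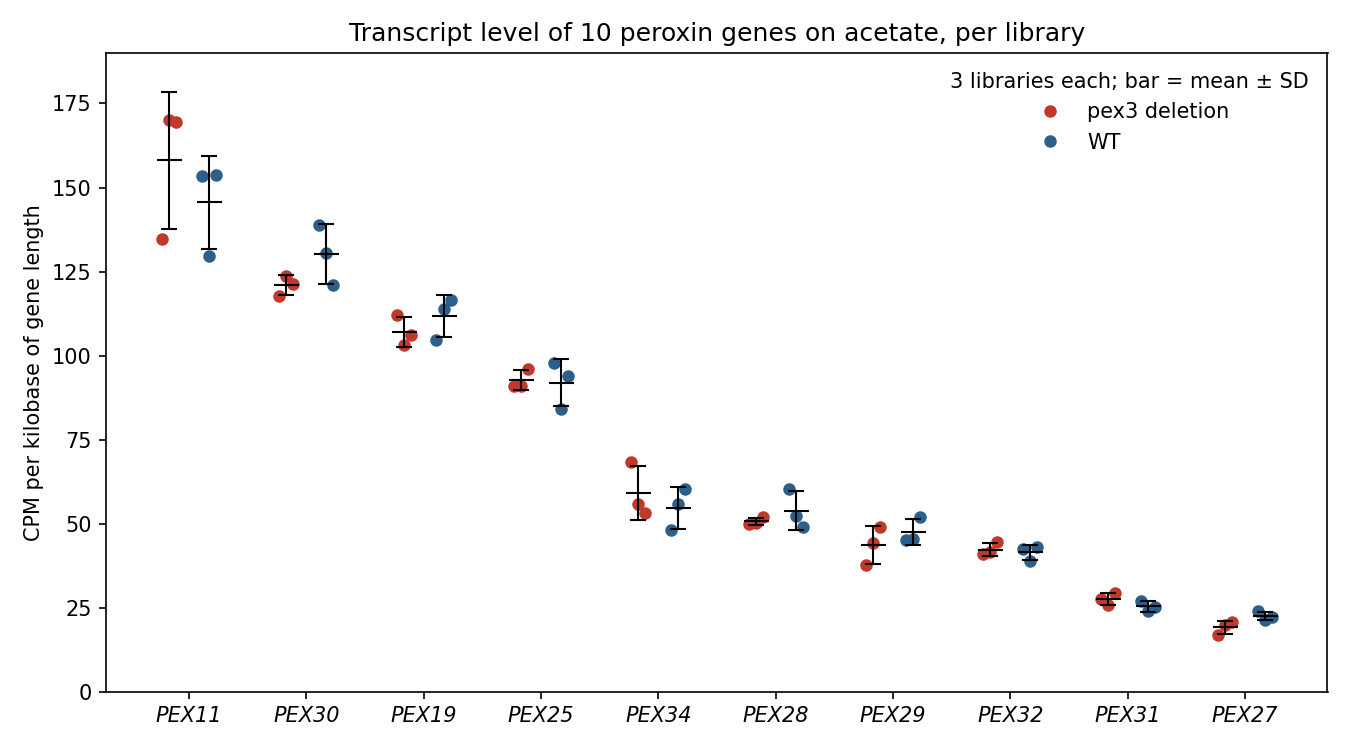
CPM per kilobase of gene length for each gene in every library, deletion left and WT right, with the mean and SD (n = 3 each), in order of the average over 6 libraries. PEX11 has the widest spread, from 129.7 to 170.2, and the strains occupy separate ranges for PEX27 alone among the 10 genes.

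PEX19 (YDL065C, R64 chrIV:336249-337277, minus strand) encodes the chaperone and receptor of peroxisomal membrane proteins, whose docking partner Pex3 is missing in the deletion strain. It measured 115, 106 and 109 CPM in deletion replicates 1, 2 and 3, against 108, 117 and 120.1 CPM in WT replicates 1, 2 and 3. The strains overlapped, since deletion replicates 1 and 3 lay above WT replicate 1. Its log2FC was -0.06 (SE 0.07, 95% interval -0.23 to 0.11, edgeR adjusted p 0.799), the narrowest interval of the 10. A single coding exon was annotated for PEX19, as for the other 9 genes, and none of the 10 overlapped another annotated gene.

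PEX11 (YOL147C, chrXV:47933-48643, minus strand) encodes the membrane protein that elongates peroxisomes before division. It measured 95.7, 121 and 120.4 CPM in the deletion libraries, against 109, 92.2 and 109.2 CPM in the WT libraries. Deletion replicates 2 and 3 lay above every WT library and deletion replicate 1 among them. A log2FC of 0.12 resulted (SE 0.11, 95% interval -0.14 to 0.38, edgeR adjusted p 0.742), and when single libraries were left out it lay between 0.038, without WT replicate 2, and 0.22, without deletion replicate 1 (adjusted p 0.948 and 0.842).

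The promoter of PEX11 is shown because it alone of the 10 held an exact match to the oleate response element (ORE), the site of Oaf1 and Pip2. The window runs from 250 bases before the start codon to 50 bases from it on (R64 chrXV:48594-48893, minus strand), and the capitals mark the ORE match at -135 to -113 from the start.
PEX11: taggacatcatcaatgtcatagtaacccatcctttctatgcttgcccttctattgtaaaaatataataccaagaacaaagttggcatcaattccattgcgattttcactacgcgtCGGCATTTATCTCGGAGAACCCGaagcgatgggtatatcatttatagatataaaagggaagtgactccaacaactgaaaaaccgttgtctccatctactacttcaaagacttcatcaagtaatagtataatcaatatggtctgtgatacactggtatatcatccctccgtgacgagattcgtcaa
The motif searched was CGGNNNTNANNNNNNNNNCCG, also with 1 to 3 more N in the second spacer, on both strands. It occurred in 54 of 6020 windows of the same length and position, or 0.897%, among them that of PSF3, which lies 220 bases away on the other side and holds the same site. An Adr1 core, TTGGAG or TTGGGG on either strand, occurred in the windows of PEX11, PEX27 and PEX28, and in 16.4% of all windows. Every fixed letter had to match. The PEX25 window shown further on holds a stretch that departs from the ORE motif by 1 letter, which was not counted. A match describes letters and not a bound site.

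Of the 54 genes with an ORE match, a list made after seeing the data, 50 were tested. Among these, 4 were called higher in the deletion strain and 0 lower, beside 0.142% and 0.0355% of all tested genes. The 4 called were EEB1, an ethyl ester synthase, POT1, the peroxisomal thiolase, FAA2, a peroxisomal acyl-CoA synthetase, and SPS19, a peroxisomal dienoyl-CoA reductase. The median log2FC of the 50 was 0.06, beside 0.0056 over all tested genes. The strains did not overlap upward for 16 of the 50 and downward for 3, beside 8.72% and 7.73% of all tested genes. An unadjusted edgeR p under 0.05 was found for 16 of the 50, beside 9.08% of all tested genes. The ORE matches of PEX11 and of these 4 genes, read in the CGG-first direction with the fixed letters in capitals, are shown so that the sites can be compared.
PEX11: CGGcatTtAtctcggagaacCCG
EEB1: CGGttaTtAttactcaatttCCG
POT1: CGGggaTaAtagtattaacaCCG
FAA2: CGGcgtTaAagactgacggtCCG
SPS19: CGGcgtTaAgtatatcaaactCCG
PEX11, EEB1, POT1 and FAA2 have the same second spacer of 11 bases, and EEB1 has another match besides. That spacer also occurred at other genes that were not called. Of these, ECI1 (log2FC 0.74), TES1 (0.61), IZH2 (0.47), NNT1 (0.38) and DUS3 (0.34) were higher in every deletion library than in any WT library. CDC27 (-0.28) was lower in every deletion library, and the strains overlapped for others, among them SAM50 (-0.0057) and BNR1 (0.08). BNR1 lies on the far side of the POT1 match and holds the same site. POT1 had a log2FC of 1.13 (95% interval 0.80 to 1.45, edgeR adjusted p 0.027) and EEB1 had 1.67 (SE 0.07, edgeR adjusted p 8.53e-05), whereas the interval of PEX11 ended at 0.38. The difference itself was not tested. POT1, FAA2 and SPS19 were called in 1, 1 and 2 of the 6 fits that left out a library, and EEB1 in all 6. Over those fits the log2FC ran from 1.02 to 1.31 for POT1 and from 0.87 to 1.10 for FAA2. It ran from 0.62 to 0.70 for SPS19 and from 1.63 to 1.70 for EEB1. With the replicate number as a block EEB1 was called (edgeR adjusted p 0.0155), and POT1, FAA2 and SPS19 were not (adjusted p 0.301, 0.207 and 0.157). FAA2 overlaps an annotated gene, and its value is uncertain because the strand used in counting is not given.

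PEX25 (YPL112C, chrXVI:337436-338620, minus strand) encodes a membrane protein of the Pex11 family that is needed to form peroxisomes anew. It measured 108, 108 and 114 CPM in the deletion libraries, against 116, 99.7 and 111 CPM in the WT libraries. The strains overlapped fully, with a log2FC of 0.011 (SE 0.08, 95% interval -0.17 to 0.19, edgeR adjusted p 0.973).

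PEX27 (YOR193W, chrXV:710446-711576, plus strand), the whole-genome duplicate of PEX25, encodes a protein of peroxisome division. It measured 19.2, 22.4 and 23.5 CPM in the deletion libraries, against 27.1, 24.2 and 25.3 CPM in the WT libraries. All 3 deletion libraries lay below all 3 WT libraries, which made it the 1 gene of 10 whose strains did not overlap. Such separation downward held for 7.73% of all tested genes and upward for 8.72%. The log2FC of PEX27 was -0.23 (SE 0.12, 95% interval -0.51 to 0.04, edgeR adjusted p 0.574). When single libraries were left out it lay between -0.29 and -0.15, with -0.15 in the fit without deletion replicate 1.

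PEX25 and PEX27 shared a position that no other gene of the 10 had, and their windows are shown for that reason. Each lies downstream of an initiator methionine tRNA gene on the same strand, IMT2 at 227 bases from PEX25 and IMT1 at 173 bases from PEX27. The capitals mark the longest identical run of both windows, 24 bases that include the end of the tRNA gene (R64 chrXVI:338571-338870, minus strand, and chrXV:710196-710495, plus strand). In PEX25 the run begins at the first base of the window, so any identity further upstream was not seen.
PEX25: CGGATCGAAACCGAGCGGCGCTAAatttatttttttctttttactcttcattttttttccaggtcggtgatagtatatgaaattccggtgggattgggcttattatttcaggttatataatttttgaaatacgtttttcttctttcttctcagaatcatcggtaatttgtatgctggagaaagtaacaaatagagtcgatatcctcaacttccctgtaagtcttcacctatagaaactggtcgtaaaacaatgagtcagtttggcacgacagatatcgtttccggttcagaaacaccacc
PEX27: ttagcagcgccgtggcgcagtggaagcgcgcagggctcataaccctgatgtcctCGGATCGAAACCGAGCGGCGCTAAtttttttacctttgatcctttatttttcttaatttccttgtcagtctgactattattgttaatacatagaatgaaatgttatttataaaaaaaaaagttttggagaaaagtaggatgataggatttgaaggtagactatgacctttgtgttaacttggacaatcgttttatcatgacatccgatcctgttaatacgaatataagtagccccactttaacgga
The coding sequences of the pair gave no nucleotide match to each other in a BLAST search at an E value up to 1e-05. The tRNA genes themselves were not analysed here.

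PEX34 (YCL056C, chrIII:26925-27359, minus strand), at 435 bases the shortest of the 10 genes, encodes a peroxisomal membrane protein that acts with the Pex11 family on organelle number. It measured 29.7, 24.3 and 23.1 CPM in the deletion libraries, against 20.9, 24.3 and 26.2 CPM in the WT libraries. The strains overlapped, deletion replicate 1 being the highest library and WT replicate 1 the lowest. PEX34 had a log2FC of 0.11 (SE 0.14, 95% interval -0.22 to 0.43, edgeR adjusted p 0.821), the widest interval of the 10, and its log2FC was -0.0073 without deletion replicate 1 and 0.02 without WT replicate 1. Its 3′ end lies 18 bases from that of PRD1, a metalloprotease gene on the other strand with a mean of 303 CPM in the deletion strain and 294 CPM in the WT. Without a stated use of strand, reads over the shared 3′ ends could count for either gene.

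PEX28 (YHR150W, chrVIII:397251-398990, plus strand) and PEX29 (YDR479C, chrIV:1415210-1416874, minus strand) encode membrane proteins that restrict the size and number of peroxisomes. PEX28 measured 87, 87.5 and 90.3 CPM in the deletion libraries, against 105.1, 90.9 and 85.5 CPM in the WT libraries. The strains overlapped and WT replicate 1 alone lay above 100 CPM. For PEX28 the log2FC was -0.09 (SE 0.09, 95% interval -0.29 to 0.12, edgeR adjusted p 0.762), and 0.0028 without WT replicate 1.

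PEX29 measured 62.9, 73.7 and 81.7 CPM in the deletion libraries, against 75.3, 75.7 and 86.5 CPM in the WT libraries. The strains overlapped, with the lowest value in deletion replicate 1 and the highest in WT replicate 3. Its log2FC was -0.12 (SE 0.11, 95% interval -0.38 to 0.13, edgeR adjusted p 0.722), with -0.030 without deletion replicate 1, -0.21 without deletion replicate 3 and -0.054 without WT replicate 3. The convergent gene SNM1 ends 38 bases from PEX29 and averaged 15 CPM in the deletion strain and 11.9 CPM in the WT. Per length, PEX28 and PEX29 were present at a ratio of 1.17 ± 0.137 in the deletion strain and 1.14 ± 0.196 in the WT (SD, n = 3 each).

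PEX30 (YLR324W, chrXII:779215-780786, plus strand) encodes the central member of the ER-resident group, which shapes membranes where peroxisomes and lipid droplets form. It had the most counts of the 10 genes and measured 185, 194 and 191 CPM in the deletion libraries, against 218, 205 and 190.4 CPM in the WT libraries. The strains overlapped only through WT replicate 3, which lay below deletion replicates 2 and 3. PEX30 had a log2FC of -0.11 (SE 0.08, 95% interval -0.28 to 0.07, edgeR adjusted p 0.666), with -0.06 without WT replicate 1 and -0.16 without WT replicate 3.

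PEX31 (YGR004W, chrVII:502938-504326, plus strand) is the whole-genome duplicate of PEX30. It measured 38.4, 35.8 and 41 CPM in the deletion libraries, against 37.7, 33.4 and 35 CPM in the WT libraries. WT replicate 1 lay above deletion replicate 2, so the strains overlapped. PEX31 had a log2FC of 0.12 (SE 0.10, 95% interval -0.11 to 0.34, edgeR adjusted p 0.695). PEX30 and PEX31 gave the only nucleotide match between any of the 10 genes and another gene, 76.2% identity over 80 bases.

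PEX32 (YBR168W, chrII:572371-573612, plus strand) encodes a further reticulon-like protein of the group. It measured 50.9, 51.5 and 55.3 CPM in the deletion libraries, against 52.8, 48.2 and 53.6 CPM in the WT libraries. The strains overlapped, and the log2FC was 0.03 (SE 0.09, 95% interval -0.17 to 0.23, edgeR adjusted p 0.932).

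The share of each gene in the transcripts of its family, per length, was computed for each library. PEX11 made up 58.4 ± 2.62% of the Pex11 family transcripts in the deletion strain and 55.9 ± 0.90% in the WT (SD, n = 3 each). PEX25 made up 34.5 ± 2.68% in the deletion strain and 35.4 ± 0.523% in the WT. PEX27 made up 7.10 ± 0.142% in the deletion strain and 8.69 ± 0.389% in the WT, and its 3 deletion values, from 6.99% to 7.26%, lay below its WT values, from 8.30% to 9.08%. In the Pex30 family PEX30 made up 63.4 ± 1.33% in the deletion strain and 66 ± 1.86% in the WT.

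PEX31 made up 14.5 ± 0.849% of the Pex30 family transcripts in the deletion strain and 12.9 ± 0.444% in the WT, without overlap between the strains. The nearest values were 13.5% in deletion replicate 2 and 13.3% in WT replicate 3, and the CPM of PEX31 itself overlapped. PEX32 made up 22.2 ± 0.552% in the deletion strain and 21.1 ± 1.48% in the WT, with overlap. These shares are ratios of the levels already given and are a description, with no test. How often shares within other gene families separate the strains was not computed. The 10 genes together took 822 ± 28.6 CPM in the deletion strain and 841 ± 29.4 CPM in the WT (SD, n = 3 each).

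**Figure D3:**
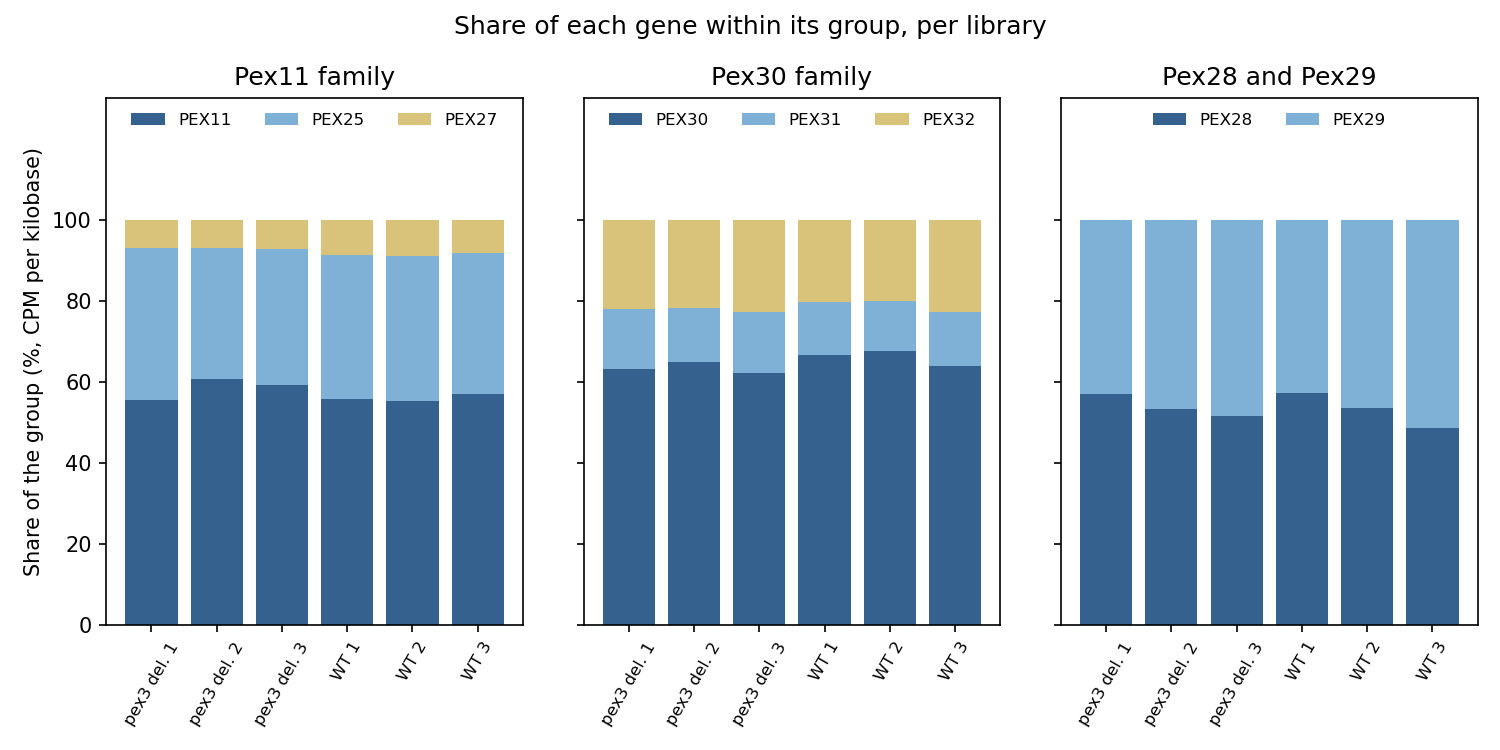
Share of each gene in the summed CPM per kilobase of its group, in percent, for each library, with the deletion libraries left of the WT libraries. PEX11 holds between 55.2% and 60.6% of its family and PEX30 between 62.1% and 67.5% of its own; PEX28 and PEX29 split their sum nearly evenly.

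When each gene was standardized over the 6 libraries, the mean of the 10, in which genes that differed in opposite directions offset each other, was -0.41, -0.23 and 0.35 SD in deletion replicates 1, 2 and 3, against 0.44, -0.43 and 0.28 SD in WT replicates 1, 2 and 3. The genes most like this mean profile over 6 libraries, of 5195 searched, were SER1, a serine synthesis gene (Pearson r 0.967), SKO1, a gene for a stress-responsive repressor (r 0.967), and RPN12, a proteasome subunit gene (r 0.963), given as a description only.

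Of 17 genes of matrix protein import and receptor export, 0 were called in either direction. An unadjusted edgeR p under 0.05 was found for 3 of them, beside 9.08% of all tested genes. The median log2FC of the 17 was 0.02, with a range from -0.32 to 0.41. PEX5, the receptor for most matrix enzymes, measured 113, 122 and 127 CPM in the deletion libraries, against 102.3, 102.5 and 99.5 CPM in the WT libraries (log2FC 0.25, SE 0.07, edgeR adjusted p 0.438). PEX6, an AAA ATPase of receptor export, had a log2FC of 0.21 (SE 0.06, edgeR adjusted p 0.438), and PEX18, a co-receptor, of 0.41 (SE 0.18, edgeR adjusted p 0.539). Of these 17 genes, 3 had an ORE match in the promoter window, namely PEX5, PEX6 and PEX13.

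Among 9 genes of fission, inheritance and abundance, 0 were called, and the median log2FC was 0.02, with a range from -0.07 to 0.32. The 3 with the smallest unadjusted p were INP2, which links peroxisomes to myosin, INP1, which anchors them in the mother cell, and the myosin gene MYO2, with log2FC values of 0.24, 0.32 and 0.12 and edgeR adjusted p-values from 0.603 to 0.673. INP1 measured 26.6, 26.2 and 26.1 CPM in the deletion libraries, against 17.6, 17.1 and 27.9 CPM in the WT libraries, so the strains overlapped through WT replicate 3.

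The Pex30 group works beside reticulons and lipid droplet proteins, and 14 genes of ER shaping and droplet assembly were listed for that reason. None of them was called, and 3 had an unadjusted edgeR p under 0.05, beside 9.08% of all tested genes. The median log2FC of the 14 was -0.01, with a range from -0.68 to 0.14. RTN2, a reticulon gene, measured 141, 177 and 183 CPM in the deletion libraries, against 349, 253 and 203 CPM in the WT libraries, with no overlap (log2FC -0.68, SE 0.19, edgeR adjusted p 0.438). Such separation downward held for 3 of the 14, RTN2 and YOP1 among them, beside 7.73% of all tested genes. Separation upward held for 0 of the 14, beside 8.72% of all tested genes. NEM1, a phosphatase subunit gene of droplet assembly, had a log2FC of -0.37 (SE 0.12, edgeR adjusted p 0.487), and YOP1, whose product acts with the reticulons, of -0.17 (SE 0.07, edgeR adjusted p 0.507). RTN1, the most abundant of the list, averaged 620 ± 36.3 CPM in the deletion strain and 624 ± 28.5 CPM in the WT (SD, n = 3 each).

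Of 5 regulators, 0 were called. PIP2, which encodes a subunit of the ORE-binding factor, measured 108, 115 and 132 CPM in the deletion libraries, against 105, 87.4 and 92.6 CPM in the WT libraries, without overlap (log2FC 0.32, SE 0.10, edgeR adjusted p 0.486). Such separation upward held for 8.72% of all tested genes. OAF1, the partner of PIP2, averaged 87.9 ± 4.60 CPM in the deletion strain and 86.1 ± 2.67 CPM in the WT (SD, n = 3 each). SNF1, the kinase of derepression, and OAF3, a further regulator, had log2FC values of -0.14 and 0.12 (edgeR adjusted p 0.658 and 0.667).

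**Figure D4:**
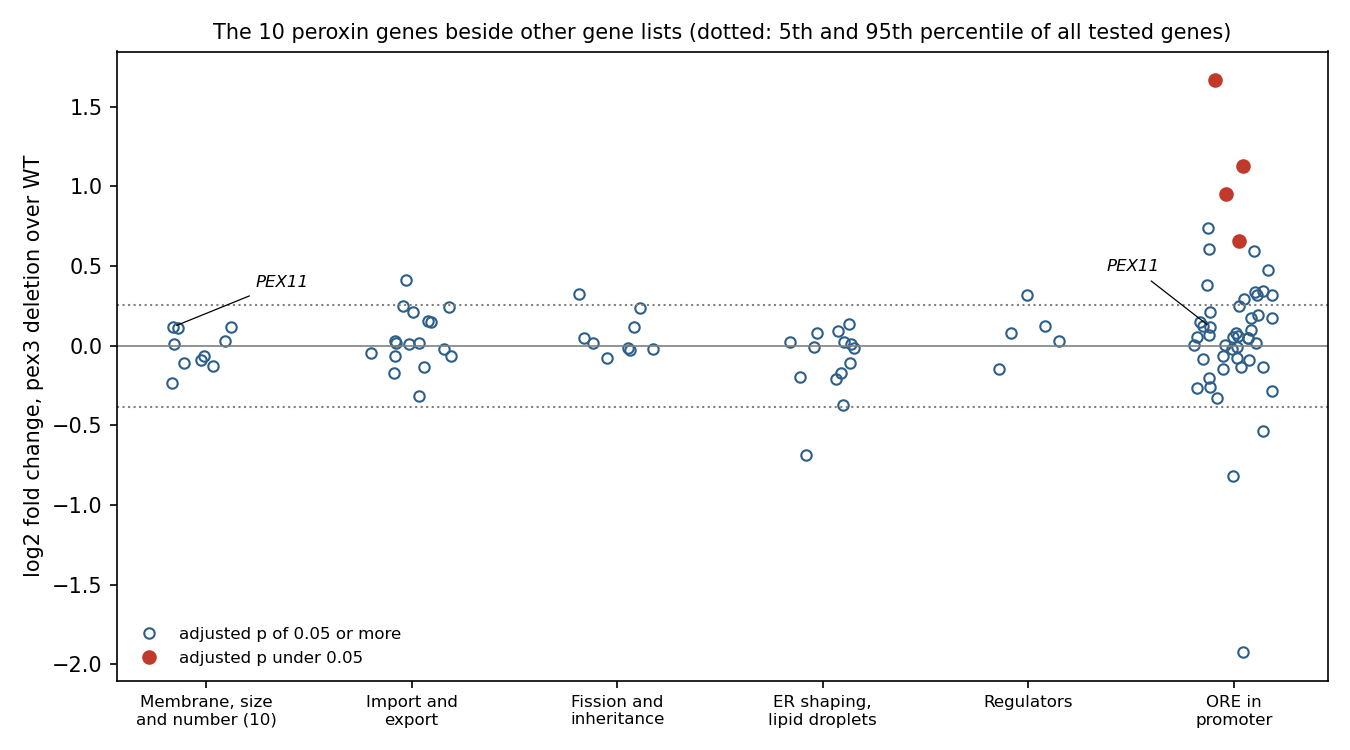
The log2 fold change, pex3 deletion over WT, of every tested gene in 6 lists; filled points passed an edgeR adjusted p of 0.05, and horizontal spread within a column has no meaning. The 10 peroxin genes lie between the 5th and 95th percentile of all tested genes, which are at -0.39 and 0.26, and the filled points are EEB1, POT1, FAA2 and SPS19.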

How the data were processed

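The authors deposited raw, whole-number counts per gene or RNA feature, 1 column per library, and columns were matched to samples by strain and number in the titles. The submitters' processing notes name genome build R64, fastp 0.20.0, STAR and RSEM 1.3.3 without roles; whether counts were rounded estimates, and whether strand was used, is not given in the sources used here. The cultures are biological triplicates, per the labels' protocols. Locus tags of the RefSeq R64 annotation were found for 5522 of 5631 rows and supplied symbols, lengths and coordinates.

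The test was that of edgeR 4.0.16 under R 4.3.3 (glmQLFit and glmQLFTest, strain as the only term, TMM factors, filterByExpr, which removed 3 rows, Benjamini-Hochberg adjustment over 5628 rows, threshold 0.05). The SE is the size of the log2 fold change divided by the square root of F, and the 95% interval uses the t quantile. Correlations and standardized values used log2 CPM with a prior count of 2. The test was checked on simulated counts. Alternatives were DESeq2 1.42.0, limma 3.58.1 voom, RLE factors, library totals, no filter, a minimum mean count of 50, a replicate block, a loess correction for gene length (span 0.3), both together, and leaving out each library. Sequences were read from the R64 genome, and gene sequences were compared with BLAST+ 2.17.0. Up to 3 genes were named per context list, those with the smallest unadjusted p, and others (PEX13, RTN1, OAF1 and the genes with an ORE match) were picked with their values known. The genes most alike were taken among rows with a mean of at least 10 CPM. The 10 genes and the lists were chosen with earlier results of these data known, and the ORE list was made after seeing the data. URA3, MET15, LEU2, MFA1, MFA2 and MF(ALPHA)2 were not analysed here; HIS3 averaged 61.7 CPM in both strains.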

Additional observations from a re-analysis of the deposited data

How the results depend on the processing

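Under 15 alternative fits, 0 of 150 values of the 10 genes passed an adjusted p of 0.05, and the smallest was 0.438, for PEX30 without WT replicate 3. The median log2 fold change of the 10 stayed between -0.05 and 0.01. The sign turned in 6 values, all in fits without a library: PEX34 without deletion replicate 1, PEX25 and PEX32 without deletion replicate 3 and without WT replicate 2, and PEX28 without WT replicate 1. Over these fits PEX34 ran from -0.0073 to 0.19, PEX25 from -0.053 to 0.056, PEX28 from -0.15 to 0.0028 and PEX32 from -0.022 to 0.057. Without single libraries PEX11 ran from 0.038 to 0.22, PEX19 from -0.11 to -0.029, PEX29 from -0.21 to -0.030, PEX30 from -0.16 to -0.056 and PEX31 from 0.068 to 0.17. Each of the 4 genes whose sign turned was within 0.11 of 0 with all libraries. With the length correction PEX27 was at -0.22 and PEX28 at -0.06.

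Calls over the whole table, 8 higher and 2 lower, became 26 higher and 32 lower with DESeq2, 1 and 0 with the replicate block, 7 and 2 with the block and the length correction together, 3 and 0 at a threshold of 0.01, and 3 to 12 higher and 0 to 5 lower when single libraries were left out. The cause was not tested. Same-numbered libraries deviated with correlations of -0.16, 0.23 and -0.26. With 3 libraries per strain, these values cannot tell whether same-numbered cultures shared an experiment. The column names of both strains carry the same numbered prefixes, whose meaning is not given. With the block the smallest edgeR adjusted p of the 10 genes was 0.654. Precision is limited by 3 libraries per strain: SEs of the 10 genes ran from 0.07 to 0.14 on the log2 scale.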

Other observations

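The nearest annotated neighbours of the 10 genes were also measured, except the tRNA genes IMT1 and IMT2, and 0 of them passed an edgeR adjusted p of 0.05. SSE2, a cytosolic chaperone gene that ends 302 bases from PEX32 on the other strand, averaged 191 CPM in the deletion strain and 243 CPM in the WT (log2 fold change -0.35, SE 0.08, edgeR adjusted p 0.28). PEX28 lies between SKG6 and MTC6, which had log2 fold changes of 0.27 (SE 0.13, edgeR adjusted p 0.565) and -0.26 (SE 0.14, edgeR adjusted p 0.576). PSF3, a replication gene on the far side of the ORE match of PEX11, averaged 23.7 CPM in the deletion strain and 22.7 CPM in the WT (log2 fold change 0.06, SE 0.13, edgeR adjusted p 0.909).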
